A study of Homo sapiens with 4 samples.

Results

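The 10 genes described here, RPS2, RPS6, RPS7, RPS13, RPS14, RPS18, RPS20, RPS21, RPS25 and RPS27, encode proteins of the small subunit of the cytosolic ribosome and lie outside chromosome 19. Their intervals were taken by position: every interval on a gene's own strand that overlapped its hg19 window was included, whatever its value. The genes themselves were chosen with earlier results of these data known. The windows held 137 of 171755 clusters of replicate 1 (0.0798%), 135 of 191899 clusters of replicate 2 (0.0703%) and 80 of the 7153 regions of the authors' series-wide list (1.12%). All 10 windows held clusters in both replicates.

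The study mapped the RNAs bound by the La-related protein LARP4 in HEK293, a human embryonic kidney line, by eCLIP, in which UV light joins a protein to the RNA it touches and an antibody recovers both. The labels give 2 biological replicates of LARP4 eCLIP and 2 of size-matched input, which is RNA of the same gel size taken before antibody recovery. All 4 samples came from cells irradiated with 400 mJ/cm2 at 254 nm, and the labels name no drug, transgene or altered genotype in either group. Each value below is the authors' log2 fold of the eCLIP library over input for a cluster, an interval of piled-up reads, so a value of 0 means equal to input.

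Small-subunit proteins are made in near-equal amounts, since one copy of each goes into a ribosome. Their mRNAs are abundant and short, and most belong to the TOP class, which starts with a C followed by a run of pyrimidines. Translation of TOP mRNAs rises and falls with mTOR signalling, and the related protein LARP1 binds the tract itself. LARP4 binds poly(A) and the cytoplasmic poly(A)-binding protein, and it is known to lengthen or protect the poly(A) tails of mRNAs, those of ribosomal proteins among them. The proteins fall into those of the subunit's head (RPS18, RPS20, RPS25), of its platform (RPS14, RPS27) and of its body (RPS2, RPS6, RPS7, RPS13, RPS21), and the results are ordered in that way after the summary.

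The start of each gene is shown because the pyrimidine tract is the sequence feature these mRNAs are known for. The sequences are from RefSeq (GRCh38.p14, not the build of the clusters), read 5′ to 3′ on the gene's strand. Each runs from 10 bases before the annotated start through its first 20 bases. Capitals mark the tract, a C followed by at least 4 pyrimidines (C or T). The longest tract beginning within 10 bases of the start is marked, so capitals can precede the start. The sense strand alone was searched and no other motif was used.
RPS18 (chr6:33272065-33272094, plus): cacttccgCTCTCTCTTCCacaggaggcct
RPS25 (chr11:119018324-119018353, minus): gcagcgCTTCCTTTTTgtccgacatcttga
RPS14 (chr5:150449720-150449749, minus): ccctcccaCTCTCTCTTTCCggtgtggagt
RPS27 (chr1:153990752-153990781, plus): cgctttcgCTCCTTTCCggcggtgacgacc
RPS6 (chr9:19380217-19380246, minus): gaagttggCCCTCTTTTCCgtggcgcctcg
RPS7 (chr2:3575250-3575279, plus): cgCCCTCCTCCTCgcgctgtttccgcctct
RPS13 (chr11:17077648-17077677, minus): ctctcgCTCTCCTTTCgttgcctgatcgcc
RPS21 (chr20:62387093-62387122, plus): ctagctgCTTCCTTTCTCTCTCgcgcgcgg

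Start sequences matched for 8 of the 10 genes, and none is shown for RPS2 and RPS20. In 7 of these 8 (87.5%) a C with at least 4 further pyrimidines began exactly at the annotated start, and in RPS7 a tract lay within 10 bases of it. Among 17 matched genes of 18 other small-subunit proteins, 11 (64.7%) had the tract exactly at the start and 14 (82.4%) had one within 10 bases. Over all 35116 genes of the RefSeq table the shares were 4.07% and 33.5%. The whole tract, as marked, was longest in RPS21, with 15 bases, followed by RPS14 with 12, and shortest in RPS27, with 9. In all 8 genes it began before the annotated start, at offsets from −2, as in RPS14, to −8 in RPS7. Its length thus counts bases that lie outside the annotated mRNA. Across the 8 genes, Spearman's rho between this whole length and the gene's mean log2 fold, given below, was 0.70. It was 0.58 with clusters below input left out. RPS27, with the shortest tract, had the fourth-highest mean of the 10 genes, and the 8 genes share the same libraries.

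Pooled over the 10 genes, LARP4 eCLIP signal was well above that of most clusters in both replicates, though the mean of RPS2, given below, was low. The median log2 fold of the clusters was 2.97 in replicate 1 (middle range 2.42 to 3.67) and 3.34 in replicate 2 (2.69 to 4.06). Over all clusters of each list the medians were 1.28 (0.53 to 2.04) and 1.30 (0.49 to 2.01). A cluster was called enriched when its log2 fold was at least 3, or 8-fold, and its −log10 p at least 3. In replicate 1, 64 of 137 clusters of the 10 genes (46.7%) were enriched, beside a background of 5.01% over all clusters. In replicate 2 the count was 89 of 135 (65.9%), beside 5.50%. RPS14, RPS18 and RPS21 held 44 of the enriched clusters in replicate 1 and 50 in replicate 2. In the other 7 genes, 20 of 88 (22.7%) and 39 of 83 (47.0%) were enriched.

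At a log2 fold of at least 4 most of the signal lay in a pair of genes. Clusters past this level numbered 27 (19.7%; all clusters 1.46%) in replicate 1 and 36 (26.7%; all clusters 1.63%) in replicate 2. RPS14 and RPS21 held 26 of the 27 and 28 of the 36. The rest were 1 cluster of RPS27 in replicate 1 and, in replicate 2, 4 of RPS6, 2 of RPS18, 1 of RPS7 and 1 of RPS20. The authors' −log10 p reaches its upper limit of 400 in 503 clusters of replicate 1 and 525 of replicate 2, or 0.293% and 0.274% of the lists. Of these, 25 and 27 lay in the 10 genes, 22 and 21 of them in RPS14 and RPS21. The −log10 p grows with the number of reads as well as with the fold, and read depth is unknown here.

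**Figure D1:**
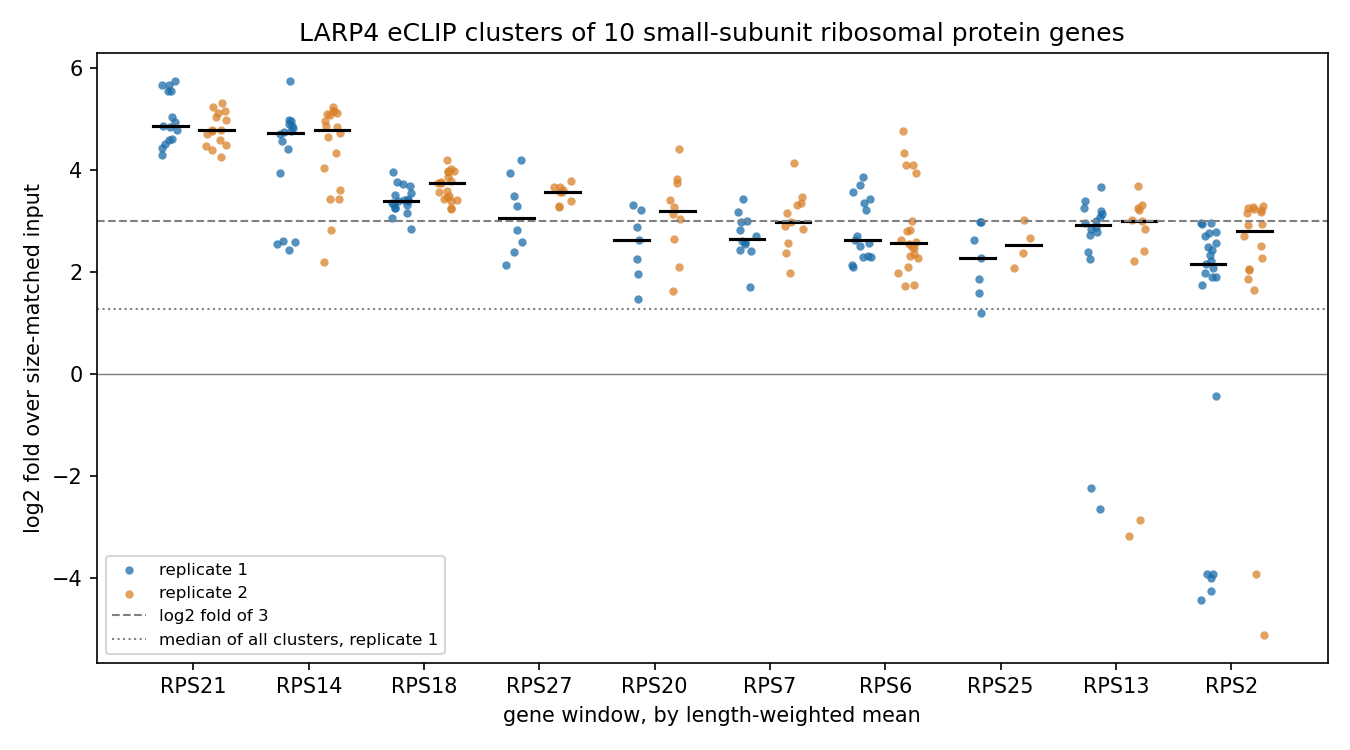
Log2 fold over size-matched input of every cluster in the 10 genes, by gene and replicate. The y axis is the authors' log2 fold, each point is a cluster, short bars are medians, the dashed line is a log2 fold of 3 and the dotted line the median of all replicate 1 clusters (1.28); RPS21 lies wholly above 4 in both replicates, while RPS2 and RPS13 have points far below 0.

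Clusters of these mRNAs are short and often touch, with a median width of 22 and 21 bases, so neighbouring clusters share a target and are not independent. Clusters of both replicates that touched or overlapped were therefore joined into 76 blocks. Of these, 65 held clusters of both replicates, and 30 (46.2%) had an enriched cluster in each, against 4.79% of all such blocks of the lists. The 30 blocks lay in 8 of the 10 genes, RPS2 and RPS25 being the exceptions. The same 8 genes were enriched in each replicate when counted as loci, meaning runs of same-strand clusters with no gap wider than 5 kb. Among all 10151 loci with at least 10 clusters, 18.3% had an enriched cluster in each replicate.

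The replicates gave close values for the clusters they shared. A pair is a replicate 1 cluster with its partner, and the same replicate 2 cluster can be the partner in several pairs. Of 130 overlapping pairs, 62 (47.7%) were enriched in both replicates, against 6.51% of 77005 pairs over all clusters. Values of a pair were within 1 log2 unit in 95.4% of the pairs of the 10 genes and in 73.4% of all pairs. From the pair differences, the SD of one value was 0.36 for these genes and 0.66 for all pairs. Pairs were not matched for read depth, which the lists do not hold, so its part in this closer agreement was not tested. The correlation over pairs was 0.96 (Pearson) and 0.87 (Spearman), falling to 0.88 and 0.86 over the 124 pairs with both folds above 0; the pairs share libraries and touching clusters. Replicate 2 was higher in 79 of the 130 pairs, by a median of 0.15, and over all pairs by 0.089. RPS21 went the other way, with a median of −0.33 and only 3 of its 15 pairs higher in replicate 2. RPS27 had the widest median difference, 0.56 higher in replicate 2.

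**Figure D2:**
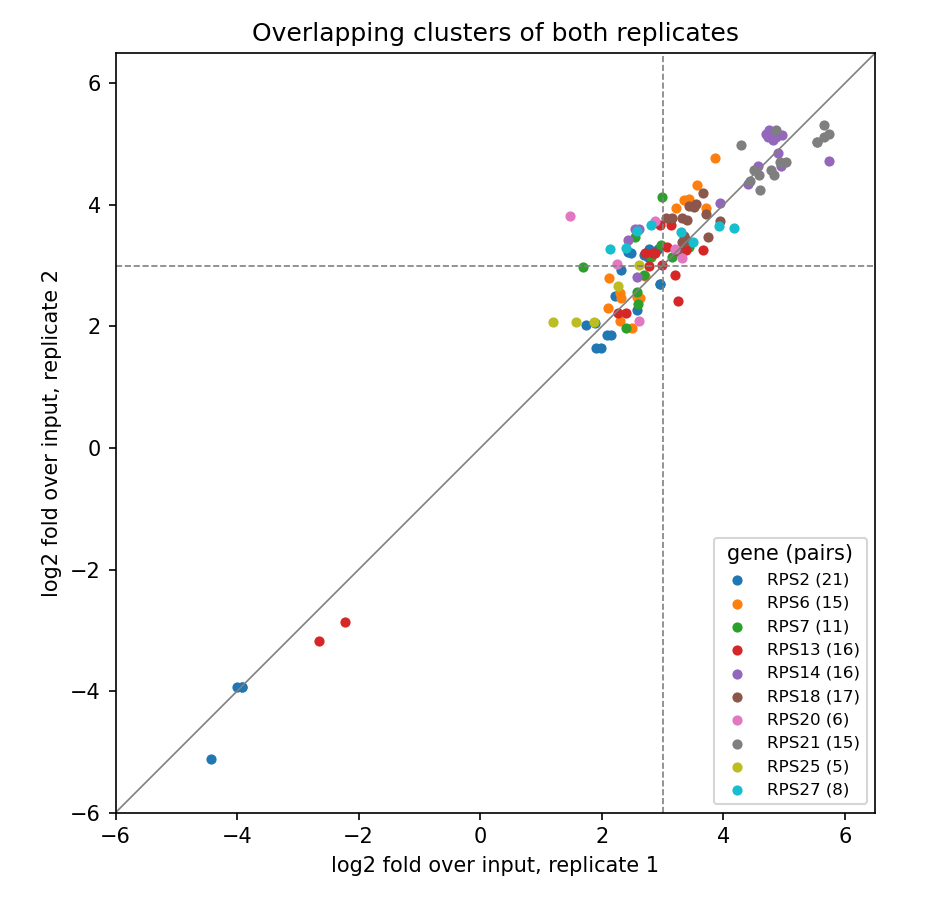
Log2 fold over input in replicate 1 (x axis) and replicate 2 (y axis) for the 130 overlapping cluster pairs, coloured by gene. The diagonal marks equal values and the dashed lines a log2 fold of 3; the pairs below 0 in both replicates belong to RPS2 and RPS13.

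Each gene was summarised by the mean log2 fold of its clusters weighted by covered bases. RPS21 had the highest value, 4.93 ± 0.11 (SD, n = 2 here and for every mean below). It was followed by RPS14 at 4.14 ± 0.14, RPS18 at 3.59 ± 0.16 and RPS27 at 3.55 ± 0.07. A middle group was made of RPS20 at 2.91 ± 0.25, RPS7 at 2.81 ± 0.17 and RPS6 at 2.76 ± 0.14. RPS25 at 2.34 ± 0.35, RPS13 at 2.16 ± 0.16 and RPS2 at 1.01 ± 0.26 had the lowest values.

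Not all neighbours in this order were separated by the spread between replicates. The replicates' values overlapped between RPS18 and RPS27, between RPS20 and RPS7, between RPS7 and RPS6, and between RPS25 and RPS13. They did not overlap between RPS21 and RPS14, RPS14 and RPS18, RPS27 and RPS20, RPS6 and RPS25, or RPS13 and RPS2. Both genes of a pair are read in the same library, so the difference was also taken within each replicate. It had the same sign in both replicates for 8 of the 9 neighbouring pairs, with RPS18 and RPS27 as the exception (−0.02 and 0.11). The within-replicate gaps were small for RPS20 over RPS7 (0.05 and 0.15), RPS7 over RPS6 (0.02 and 0.07) and RPS25 over RPS13 (0.05 and 0.32), and wide for RPS21 over RPS14 (0.97 and 0.61). A 2-sided exact sign-flip permutation test of 2 differences cannot go below p = 0.5, so none of these gaps could pass a threshold. With clusters below input left out, RPS13 rose from 2.16 to 3.15 ± 0.01 and RPS2 from 1.01 to 2.55 ± 0.24, and RPS13 then stood above RPS20, RPS7 and RPS6.

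**Figure D3:**
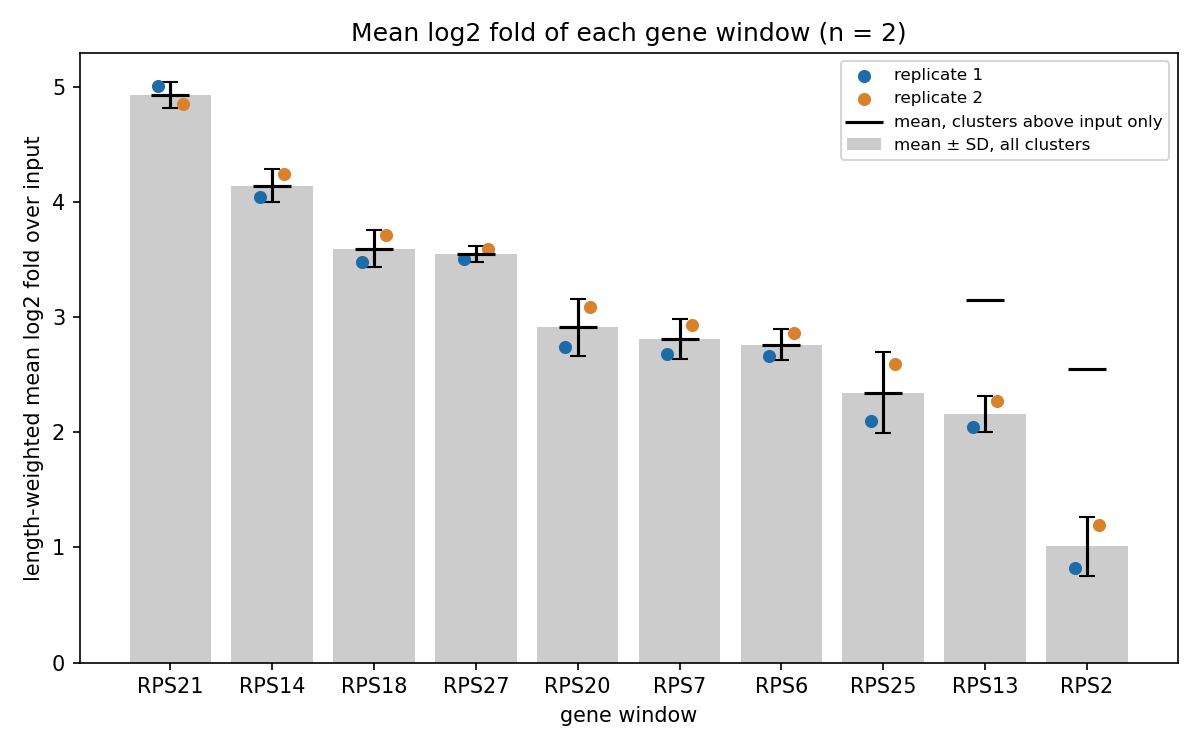
Mean log2 fold over input of each gene, weighted by covered bases: grey bars with error bars are the mean ± SD of 2 replicates, points are the replicates, and black lines are the mean without clusters below input. RPS21 (4.93) and RPS14 (4.14) lead, and leaving out clusters below input changes RPS2 and RPS13 and no other gene.

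Set among the 10151 loci with at least 10 clusters, whose median mean log2 fold was 1.37 in each replicate, RPS21 ranked 11th in replicate 1 and 26th in replicate 2. RPS14 ranked 80th and 81st, and RPS27 187th and 220th. RPS2 ranked 7879th and 6061st. The locus of RPS18, ranked 427th and 282nd, ran past the gene's window and took in the 2 flanking clusters of each replicate, which gave it means of 2.97 and 3.38 in place of the gene's own 3.48 and 3.71. The other 5 genes lay between rank 438 and rank 1900. These loci differ in expression and in read depth, which the lists do not hold, so the ranks are descriptive.

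The proteins of the head gave one strong and 2 weaker mRNAs. RPS18, a protein that contacts the large subunit, was enriched in nearly every cluster: 17 of 18 in replicate 1 and 19 of 19 in replicate 2. Its clusters, on the plus strand of chromosome 6 from 33239853 to 33244223, ran from 2.85 to 3.95 (median 3.38) in replicate 1 and from 3.23 to 4.20 (median 3.74) in replicate 2. All 8 of its blocks seen in both replicates were enriched in each. The block nearest the 5′ end, at 33239853 to 33239899, had a log2 fold of 3.67 in replicate 1 and 4.20 in replicate 2. The last, at 33244168 to 33244223, had 3.76 and 3.52. These 8 blocks had means over both replicates of 3.32 to 3.94. The gene's blocks covered 419 of the 4371 bases they spanned, and none lay between 33240503 and 33243575.

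RPS20, the human relative of bacterial S10, had its steady signal at the 5′ end. On the minus strand of chromosome 8, its first block at 56986940 to 56987062 reached 3.08 and 3.44 and was enriched in both replicates. This block held all 3 of the gene's series-wide regions, whose authors' log2 folds were 3.21 to 3.31. Further along, the replicates parted: the block nearest the 3′ end, at 56985738 to 56985795, had 1.48 in replicate 1 and 3.82 in replicate 2. Of 7 blocks only 4 were covered in both replicates. In all, 2 of 7 clusters were enriched in replicate 1 and 7 of 10 in replicate 2.

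RPS25, which translation from several viral internal ribosome entry sites needs, was the weakest head mRNA and had no series-wide region. None of its 7 clusters was enriched in replicate 1, where they ran from 1.20 to 2.97, and 1 of 4 was enriched in replicate 2, where they ran from 2.08 to 3.01. The highest cluster of replicate 2, at 118888149 to 118888213 on the minus strand of chromosome 11, had a log2 fold of 3.01, and the cluster there in replicate 1 had 2.62. Both clusters in the 3′ part of the gene, each at 2.97, were seen in replicate 1 alone. In RefSeq the gene CENATAC overlaps RPS25, and the table used gives no strand for it.

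The platform genes were both high. RPS14, the protein whose loss of 1 gene copy underlies the anaemia of the 5q deletion syndrome, was enriched in 12 of 16 clusters of replicate 1 and 16 of 18 of replicate 2. Its clusters ran from 2.42 to 5.74 (median 4.72) and from 2.20 to 5.23 (median 4.78). On the minus strand of chromosome 5, the 3 blocks toward the 3′ end stood apart from those before them. These had 4.37 and 4.30 at 149826365 to 149826513, 4.83 and 5.08 at 149825172 to 149825249, and 4.78 and 5.18 at 149823829 to 149823917, replicate 1 first. The block nearest the 5′ end, at 149829266 to 149829301, had 2.61 and 3.60, and the one at 149827214 to 149827298 had 2.58 and 3.07. In each replicate, the lowest of the 3 late blocks thus exceeded the highest of the early ones. Of the gene's 15 series-wide regions, 14 lay in the late blocks; the highest, 6 bases at 149826365 to 149826370, had an authors' log2 fold of 5.24, with 5.74 and 4.73 in the replicates.

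RPS27, a zinc-finger protein, had 4 of 8 clusters enriched in replicate 1 and 9 of 9 in replicate 2. Its clusters ran from 2.13 to 4.18 in replicate 1 and from 3.28 to 3.78 in replicate 2, so replicate 1 spread wider on both sides. The gap came from the 5′ part. There, on the plus strand of chromosome 1, the block at 153963238 to 153963278 had 2.78 in replicate 1 and 3.70 in replicate 2, and the block at 153963591 to 153963615 had 2.27 and 3.29. In the block at 153964042 to 153964152 replicate 1 was the higher, with 4.06 against 3.64. The strongest of the gene's 7 series-wide regions, 153964042 to 153964096, lay in that block, with an authors' log2 fold of 4.03.

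Among the body genes, RPS21, a small protein of the solvent side, stood highest of all 10. Every one of its 15 clusters in each replicate was enriched and had a log2 fold of at least 4. They ran from 4.29 to 5.75 (median 4.86) in replicate 1 and from 4.25 to 5.31 (median 4.77) in replicate 2, and the gene's mean was 32.2-fold and 28.8-fold over input. All 7 blocks, from 60962186 to 60963522 on the plus strand of chromosome 20, were enriched in both replicates. The highest were at 60962936 to 60962970, with 5.73 and 5.16, and at 60963365 to 60963420, with 5.65 and 5.29. Blocks in the 5′ part were lower: 60962377 to 60962444 had 4.57 in each replicate, and 60962667 to 60962730 had 4.62 and 4.50. The last block, 60963514 to 60963522, had 4.95 and 4.75, below the one before it. The gene's top series-wide region, 60963371 to 60963420, had an authors' log2 fold of 5.51, the highest in the 10 genes, and 146 regions elsewhere in the list exceeded it.

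RPS6, the classic substrate of S6 kinase downstream of mTOR, was high at both ends and lower between them. It had 6 of 15 clusters enriched in replicate 1 and 5 of 20 in replicate 2. On the minus strand of chromosome 9, the first block at 19380188 to 19380234 had 3.82 and 4.73, and the last at 19376313 to 19376386 had 3.54 and 3.95. The blocks between had means over both replicates of 2.19 to 2.81. Within the block at 19379485 to 19379616 the edge toward the 5′ end was higher, with an authors' log2 fold of 3.95 at 19379614 to 19379616. All 6 series-wide regions of RPS6 lay in these 3 blocks.

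RPS7, which can bind the p53 regulator MDM2, had 2 of 12 clusters enriched in replicate 1 and 5 of 11 in replicate 2. Its block at 3623181 to 3623275 on the plus strand of chromosome 2 had 2.88 and 3.33, and the short block at 3625341 to 3625365 had 3.43 and 3.30. Those were its blocks enriched in each replicate. The strongest of its 4 series-wide regions, 3623233 to 3623275, had an authors' log2 fold of 3.52, but the replicates differed there, with a value just under the threshold of 3 in replicate 1 and 4.13 in replicate 2. The lowest cluster of RPS7 had 1.70 in replicate 1 and 1.98 in replicate 2, so none lay below input.

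RPS13, one of the first proteins to join the growing small subunit, mixed enriched clusters with clusters far below input. It had 6 of 16 clusters enriched in replicate 1 and 5 of 11 in replicate 2, and its highest clusters reached 3.67 and 3.68. Its strongest blocks, on the minus strand of chromosome 11, were 17097001 to 17097051, with 3.11 and 3.68, and 17096645 to 17096745, with 3.61 and 3.26. The block at 17097346 to 17097393, which lies before both, had −2.66 and −3.18. A second such block, at 17096200 to 17096240, had −2.23 and −2.87. The other 8 blocks had means over both replicates of 2.28 to 3.43.

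RPS2, a body protein at the entrance of the mRNA channel, showed the same mixture with weaker peaks. None of its 23 clusters was enriched in replicate 1, where the highest was 2.96, and 7 of 18 were enriched in replicate 2, where the highest was 3.28. On the minus strand of chromosome 16, the block at 2013038 to 2013079 had −4.42 and −5.11, and the one at 2012407 to 2012466 had −3.92 and −3.93. Replicate 1 had further clusters below input at 2012999 to 2013034, with −4.26, and at 2013885 to 2013961, with −0.43, where replicate 2 had no cluster. The 5′ block at 2014544 to 2014629 had 2.77 and 3.16, and the 3′ block at 2012122 to 2012271 had 2.46 and 2.94. All 3 series-wide regions, at authors' log2 folds of 3.03 to 3.11, had a replicate 1 value below 3.

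Clusters below input were thus found in RPS2 and RPS13 and in none of the other 8 genes. They numbered 8 of 137 (5.84%) in replicate 1 and 4 of 135 (2.96%) in replicate 2, beside 11.6% and 11.2% of all clusters. The RefSeq table (GRCh38) places snoRNA genes inside 3 of the 10 genes: SNORA10 and SNORA64 in RPS2, SNORD14A and SNORD14B in RPS13, and SNORD54 in RPS20. These snoRNAs, small guide RNAs for RNA modification, are cut out of the host's introns. The number of blocks below input that both replicates share, 2 in each gene, equals the number of snoRNA genes in RPS2 and in RPS13, whereas RPS20 had no cluster below input. The builds differ and positions were not matched, so the part of the snoRNAs in these values was not tested.

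**Figure D4:**
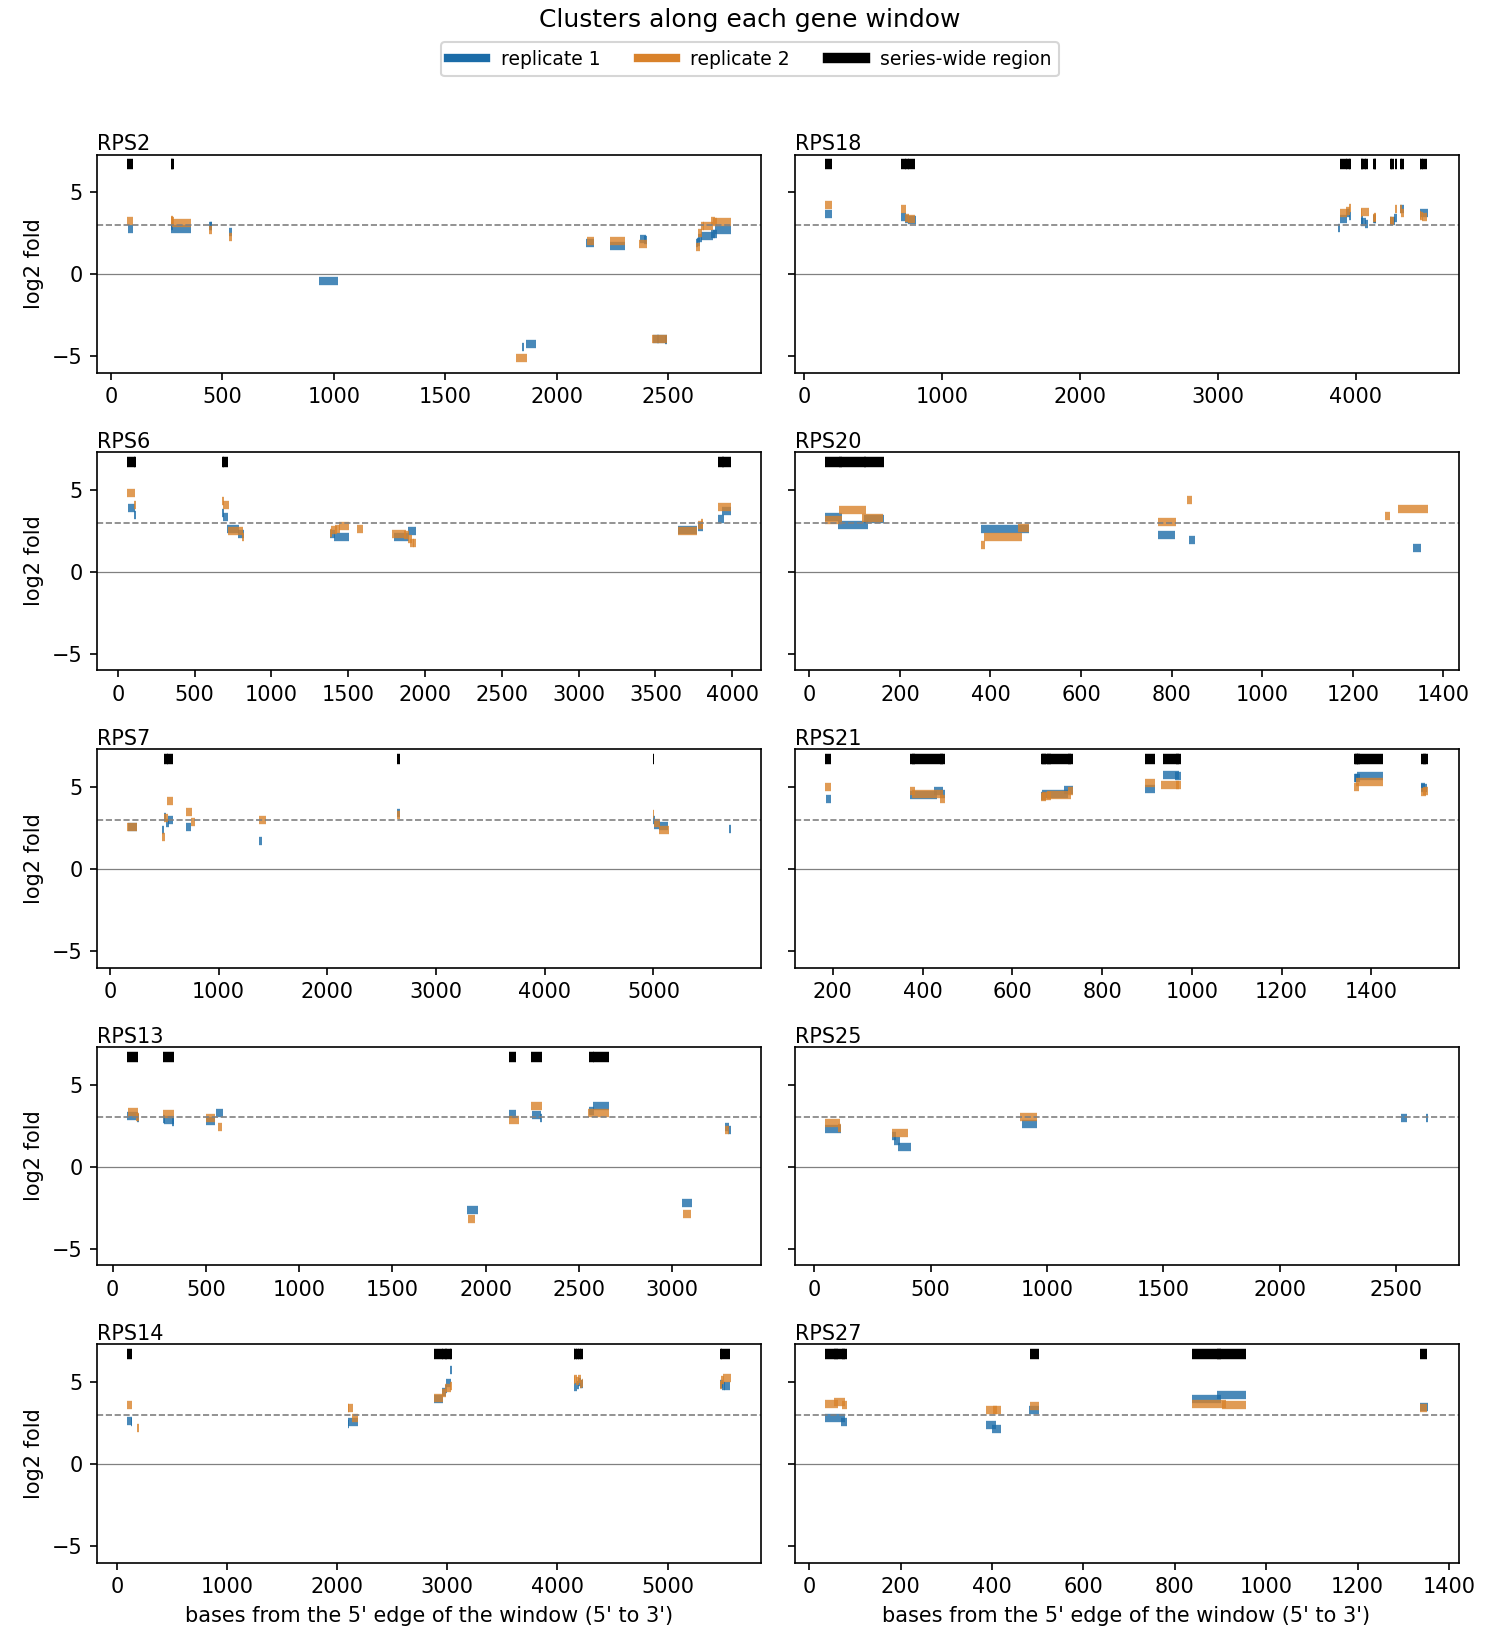
Clusters along each gene, drawn at their log2 fold over input (y axis) against distance in bases from the 5′ edge of the window (x axis, scaled per gene), with replicates in colour, series-wide regions as black bars on top and a dashed line at a log2 fold of 3. RPS18 and RPS21 are high wherever they have clusters, RPS14 rises toward the 3′ end, RPS6 is high at both ends, and RPS2 and RPS13 drop below 0 at 2 shared places each.

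No single direction along the gene held for all members. Cluster bases 3′ of the midpoint were compared with those 5′ of it in the 9 genes with both, RPS25 having no 3′ cluster in replicate 2. The 3′ side was the higher in both replicates in RPS14 (by 2.01 and 1.64), RPS21 (0.93 and 0.64), RPS6 (0.39 and 0.26) and RPS27 (1.29 and 0.08). The 5′ side was the higher in both replicates in RPS2 (3′ minus 5′ of −0.98 and −2.52), RPS13 (−1.44 and −1.29) and RPS7 (−0.07 and −0.48). RPS18 had the same sign but nearly level sides, at −0.01 and −0.11. RPS13 turned to 0.31 and 0.11 higher on the 3′ side once clusters below input were left out, while RPS2 stayed lower there, at −0.56 and −0.57. RPS20 changed sign between replicates, with −0.82 and 0.66. The 3′ end of the last block is not the end of the mRNA, and exons, introns and UTRs were not assigned, since no hg19 annotation was used here.

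Among the 80 series-wide regions, 67 had an overlapping cluster of at least 3 in each replicate and 13 in one of them. Their median authors' log2 fold was 3.79, beside 3.65 for the whole list, and 32 of the 80 reached 4, beside 30.5% of the list. RPS18 held 20 of the regions, RPS21 16 and RPS14 15. The series-wide list holds no fold below 3, so their height is no further evidence of enrichment.

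Few clusters lay outside the genes' strand and bounds. The opposite strand of the 10 windows held 0 clusters in either replicate and 0 series-wide regions. In the 5 kb on either side, on the same strand, each replicate had 2 clusters, all beside RPS18 and none enriched, with medians of 1.52 and 2.21. Other windows were not counted in this way, so whether these low counts are particular to the 10 genes was not tested. Ribosomal protein genes have many processed copies: RefSeq names 55 pseudogenes of RPS2, 35 of RPS20, 30 of RPS27, 26 of RPS6, and 8 to 15 of each of the others. The treatment of reads that fit several copies is not stated in these sources, and its part in the levels was not tested. Across the 10 genes, Spearman's rho between the number of pseudogenes and the mean log2 fold was −0.30, or −0.46 without clusters below input, as a description over genes that share libraries.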

How the data were processed

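LARP4 eCLIP and size-matched input were measured in 2 biological replicates each, per the labels' protocols. UMI-tools 1.0.0, cutadapt 1.14, STAR 2.7.6a, SAMtools 1.6 and the hg19 build come from a list of names, per the submitters' processing notes. No source used here gives the peak caller or its settings. The authors deposited stranded clusters for each eCLIP replicate and a series-wide list of regions. They hold the authors' −log10 p over input, limited at 400, and the authors' log2 fold over input, meanings read from the values in the absence of a header. In the 10 genes the −log10 p is 0 wherever the fold is below 0. The inputs enter only through these values, and no reads are given, so depth is unknown and no interval can be put on a single fold.

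Intervals were assigned by the windows, on 1-based positions. Overlap meant at least 1 shared base, with the longest overlap as partner. Counts stand beside those over all clusters, with no test, and neighbours in the order of genes were compared within each replicate by an exact sign-flip permutation test. The 10 genes and the lists were chosen with earlier results of these data known. The rule for naming covers all 10 genes, their series-wide regions, and the highest and lowest cluster of each replicate; the blocks, and the analyses of blocks, loci and clusters below input, were chosen after values were seen. Alternatives were another fold or p threshold, other overlaps, weightings, midpoints, and each replicate left out. Counting and pairing were tested on simulated data. Python 3.11.15, numpy 2.4.6, pandas 2.3.3 and matplotlib 3.10.9 were used.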

Additional observations from a re-analysis of the deposited data

How the results depend on the processing

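The counts depend on the fold that counts as enriched. At a log2 fold of at least 4, enriched clusters numbered 27 in replicate 1 and 36 in replicate 2. Pairs enriched in both numbered 26, genes with such a pair 2 (RPS14 and RPS21) and series-wide regions 32. At a log2 fold of at least 1, 125 of the 137 clusters of replicate 1 were enriched, and 122 of the 130 pairs in both replicates. Medians over all clusters were 1.28 and 1.30, so most clusters of the lists reach that fold. The share enriched over all clusters was not counted at this level. Without RPS14, RPS18 and RPS21, an alternative chosen after seeing the data, the enriched clusters were 20 and 39. The median 3′ minus 5′ difference over 9 genes, averaged over the replicates' separate medians, was 0.035, and it ranged from −0.006 without replicate 2 to 0.076 without replicate 1. It was 0.089 with the midpoint of the window, a setting that dropped RPS20, which had no cluster 3′ of that point. As the median of the genes' means over both replicates, a summary chosen after seeing the data, it was −0.056. The difference thus has no settled sign. Genes with an enriched cluster numbered 8 without replicate 2 and 10 without replicate 1. RPS25 was counted through 1 cluster, with a log2 fold of 3.01. The share of all loci with an enriched cluster in a single replicate was not counted. Of the 125 values recomputed under alternatives, 102 stayed within 1.5 times the count or 1 SD. Among them was 1 that changed sign, the 3′ minus 5′ difference of RPS20 (0.66 without replicate 1). Part of the 102 was fixed in advance, so their share is no measure of stability. A mean of 2 replicates always stays within 1 SD when either is left out. Leaving out clusters below input cannot change a gene that has none. The mean of RPS2 moved from 1.01 to 1.39 unweighted, 1.62 over bases covered in both replicates, 2.48 as a median over clusters and 2.55 without clusters below input. That of RPS13 moved from 2.16 to 2.95 as a median and 3.15 without clusters below input. No paired analysis was possible between eCLIP and input because the inputs enter only inside the deposited folds; gene-to-gene differences within a replicate stand beside the order of the genes. The lists hold no reads, so what depth limits cannot be given.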
